A study of Homo sapiens with 16 samples.

Results

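The inflammatory cytokines examined here were IL1A, IL1B, IL1RN, IL18 and IL33 of the interleukin-1 (IL-1) family, IL6, IL11 and LIF of the IL-6 family, CSF2, which encodes GM-CSF, and TNF. These 10 genes, taken by name from the 42665 gene names of the array, were covered by 13 probes of 60 bases. They were measured in 16HBE cells, a human bronchial epithelial line immortalised with SV40 large T antigen. 16HBE-WT cells carried unedited MET, and 16HBE-ex14 cells carried a CRISPR/Cas9 edit at the splice donor of MET exon 14, so that exon 14 is skipped. Each genotype was starved for 2 h and then left without ligand or given 20 ng/mL HGF, the ligand of MET, for 24 h, which gave the pair 16HBE-WT and 16HBE-WT+HGF and the pair 16HBE-ex14 and 16HBE-ex14+HGF, with 4 arrays per condition. The 16HBE-ex14 arrays all came from a single clone, clone F, so an effect of the edit and a feature of that clone cannot be told apart. The study states that the replicates were grown in separate weeks, but the labels do not tie an array to a week.

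The IL-1 family holds cytokines that barrier epithelium stores or releases when it is damaged. IL-1α and IL-1β, from IL1A and IL1B, act through the same receptor pair, and IL-1 receptor antagonist, from IL1RN, binds that receptor without starting a signal. IL-6, IL-11 and LIF each need the shared chain gp130, and TNF and IL-1 both reach NF-κB, whose targets include many of the cytokines themselves.

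Each value below is a log2 level, the processed signal of a probe relative to the 75th percentile of its array. A probe was tested where 4 or more of the 16 arrays flagged its signal as well above background. It was called where limma gave a Benjamini-Hochberg adjusted p under 0.05 over all 34600 tested probes and the fold change exceeded 1.5. A gene was represented by its tested probe of highest mean level, and levels were compared only within a probe. Of the 10 genes, 9 were tested. IL33, the alarmin of epithelial nuclei, was well above background on 1 of 16 arrays, 16HBE-ex14+HGF replicate 2, where its log2 level was -4.54, and it was not tested. IL1RN passed the filter on 10 arrays, 8 of them 16HBE-WT or 16HBE-WT+HGF, so its place among the tested genes rests on the genotype in which it was higher. The other 8 genes were well above background on all 16 arrays.

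Across the arrays, 48.99 to 60.32% of probes were well above background, and the 75th percentile ran from 138.4 to 259.8 intensity units, with a median of 169.7 in 16HBE-WT and 230.6 in 16HBE-ex14. Each cell type marker was read only at its probe of highest mean level, and its other probes were not counted. All 8 epithelial markers, such as EPCAM and KRT18, were well above background on every array. KRT5, a keratin of basal cells, was the only epithelial marker called between the genotypes, with log2 differences of -2.57 without HGF and -4.25 with HGF, and it fell by 2.31 with HGF in 16HBE-ex14 (adjusted p = 0.000148). Of 6 leukocyte markers on the array, 5 were well above background on all 16 arrays, and the B cell marker MS4A1 on none. Mean levels of those 5 per condition lay between -3.72 and 0.35, and CD3E and CSF1R were each called lower in 16HBE-ex14 cells in 1 of the genotype comparisons. CSF1R also fell by 1.45 with HGF in 16HBE-ex14 (adjusted p = 0.00313). Of 6 fibroblast markers, COL1A1 and PDGFRB were well above background on all 16 arrays and COL1A2, COL3A1 and DCN on none. LUM was above it on 8 arrays and was called lower in 16HBE-ex14 cells (log2 difference -3.66). Its mean log2 level was -2.93 in 16HBE-WT and -6.59 in 16HBE-ex14, so the size of that difference depends on signals near background. Of 4 endothelial markers, CDH5 and VWF were well above background on all 16 arrays and PECAM1 and KDR on none. The part of these markers in the results below was not tested. The arrays measured RNA per culture, so fewer expressing cells and less RNA per cell cannot be told apart.

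The first comparison asked how the cytokines differed between 16HBE-ex14 and 16HBE-WT cells in the absence of HGF. IL1A, IL1B, IL1RN and IL11 were lower in 16HBE-ex14 cells and LIF and TNF were higher, so 6 of the 9 tested cytokine genes were called, 4 lower and 2 higher. Of all 26368 gene names tested, 9.26% were called, 4.77% lower and 4.48% higher. The median absolute log2 difference was 0.87 over the 9 cytokine genes and 0.24 over all genes.

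IL1A, which encodes a cytokine that is active without cleavage, had log2 levels of 1.81, 2.08, 2.36 and 1.90 in the 4 16HBE-WT arrays and 0.13, 0.30, -0.44 and 0.26 in the 4 16HBE-ex14 arrays. Every 16HBE-ex14 array was below every 16HBE-WT array. The difference was -1.97 ± 0.27 (log2, SE), a 3.93-fold lower level, with an adjusted p of 0.000165.

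IL1B, which encodes the precursor that caspase-1 cleaves, had log2 levels of -0.18, 0.02, 0.70 and 0.63 in 16HBE-WT and -1.99, -1.38, -2.10 and -2.03 in 16HBE-ex14. The groups did not overlap. The difference was -2.17 ± 0.27 (log2, SE), or 4.49-fold lower, with an adjusted p of 7.47e-05, and it was -1.61 among the arrays of slide 1 and -2.73 among those of slide 2.

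IL1RN had log2 levels of -0.82, -0.78, -0.95 and -0.80 in 16HBE-WT and -4.67, -4.62, -4.17 and -5.03 in 16HBE-ex14 at its representative probe, A_33_P3246833. Only 1 of the 4 16HBE-ex14 values was well above background, so the size of the difference, -3.79 ± 0.23 (log2, SE, adjusted p = 1.29e-07), depends on signals near background. With normexp background correction, which added an offset of 50 intensity units, the same probe gave -1.53 without HGF and -1.41 with HGF. Both were called. The second IL1RN probe, A_33_P3246829, did not show it. It was above background on all 16 arrays, at mean log2 levels of -3.27 ± 0.08 (SD, n = 4) in 16HBE-WT and -3.34 ± 0.34 in 16HBE-ex14, and its difference was -0.07 with an adjusted p of 0.885. In 16HBE-WT its level was nearer than that of A_33_P3246833 to about -4.39, the lowest log2 value well above background (median over arrays). The probes lie in the same gene at chr2:113891531-113891590 and chr2:113890639-113890698 (hg19, array annotation). The annotation gives both the same transcript, and which transcripts each detects was not tested. The antagonist was thus lower at 1 of its 2 probes.

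IL11, a cytokine of the IL-6 family that signals through IL11RA and gp130, had log2 levels of -0.82, 0.17, 0.09 and -0.44 in 16HBE-WT and -1.15, -1.09, -1.37 and -0.91 in 16HBE-ex14. The lowest 16HBE-WT array lay just above the highest 16HBE-ex14 array. The difference was -0.88 ± 0.24 (log2, SE), with an adjusted p of 0.0176. The call was lost without 16HBE-WT replicate 2 (adjusted p = 0.0572), 16HBE-WT replicate 3 (0.0557) or 16HBE-ex14 replicate 3 (0.0529).

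LIF, a relative of IL-6 that signals through LIFR and gp130, moved the other way. Its log2 level was 1.53, 1.08, 1.59 and 1.70 in 16HBE-WT and 2.03, 1.88, 2.21 and 2.45 in 16HBE-ex14, without overlap. The difference was 0.67 ± 0.20 (log2, SE), with an adjusted p of 0.0285. The second LIF probe, A_24_P233488, gave 0.49 and an adjusted p of 0.112, which missed the threshold. The call was also lost without 16HBE-WT replicate 1 (adjusted p = 0.054) or 2 (0.089) and without 16HBE-ex14 replicate 3 (0.0655) or 4 (0.0886).

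TNF had log2 levels of 0.52, 0.36, 1.18 and 0.27 in 16HBE-WT and 1.33, 1.65, 1.12 and 1.73 in 16HBE-ex14. The highest 16HBE-WT array, replicate 3, exceeded the lowest 16HBE-ex14 array, also replicate 3. The difference was 0.87 ± 0.25 (log2, SE), with an adjusted p of 0.0254. It lost its call without 16HBE-WT replicate 1 (adjusted p = 0.0602), 2 (0.0689) or 4 (0.0707) and without 16HBE-ex14 replicate 2 (0.0662) or 4 (0.074). Without 16HBE-WT replicate 2, IL11, LIF and TNF all fell out and 3 genes, IL1A, IL1B and IL1RN, were called.

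The remaining 3 tested genes were not called. IL18, a constitutively stored member of the IL-1 family, was lower on every 16HBE-ex14 array (-0.41, -0.40, -0.31 and -0.26) than on every 16HBE-WT array (-0.18, 0.13, -0.05 and 0.09). Its difference of -0.34 had an adjusted p of 0.0261, but the fold change of 1.27 was under the limit of 1.5. With arrays scaled to their median instead, the IL18 difference was -0.21 (adjusted p = 0.326). IL6 ranged from 3.99 to 5.27 in 16HBE-WT and from 4.62 to 5.58 in 16HBE-ex14, with a difference of 0.50 (95% confidence interval -0.27 to 1.27, adjusted p = 0.39). Its second probe gave 0.40 (adjusted p = 0.363). CSF2 ranged from -1.32 to 0.56 and from -0.36 to 0.43, with a difference of 0.29 (-0.49 to 1.08, adjusted p = 0.651). For both genes the arrays overlapped and the intervals allowed differences in either direction.

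The sequences before the start sites are shown for 4 called genes of the interleukin families and for TNF, because the first 4 were lower together and TNF was not. They are the 250 bases upstream of the annotated start (RefSeq, GRCh38.p14), 5′ to 3′ on the strand of the gene, and 8 of the 10 genes had 1 or more windows in the table. The positions are chr2:112784494-112784743 for IL1A (minus strand), chr2:112836780-112837029 for IL1B (minus), chr2:113117721-113117970 for the first of 3 IL1RN windows (plus), chr19:55370464-55370713 for IL11 (minus) and chr6:31575315-31575564 for TNF (plus). Capitals mark letters of the motifs searched on both strands, which were AP-1 (TGANTCA), C/EBP (TTNNGNAA), STAT (TTCNNNGAA), the TATA box (TATAAA) and NF-κB.
IL1A: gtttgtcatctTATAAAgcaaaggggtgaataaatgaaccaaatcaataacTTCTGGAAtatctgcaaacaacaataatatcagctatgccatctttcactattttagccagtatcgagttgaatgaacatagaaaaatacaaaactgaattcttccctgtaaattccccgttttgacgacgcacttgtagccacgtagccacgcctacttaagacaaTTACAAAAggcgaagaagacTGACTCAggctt
IL1B: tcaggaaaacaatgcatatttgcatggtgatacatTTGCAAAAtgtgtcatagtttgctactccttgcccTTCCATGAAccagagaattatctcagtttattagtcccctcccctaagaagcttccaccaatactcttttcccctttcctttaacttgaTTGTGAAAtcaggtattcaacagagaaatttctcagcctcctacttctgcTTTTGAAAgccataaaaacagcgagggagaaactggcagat
IL1RN: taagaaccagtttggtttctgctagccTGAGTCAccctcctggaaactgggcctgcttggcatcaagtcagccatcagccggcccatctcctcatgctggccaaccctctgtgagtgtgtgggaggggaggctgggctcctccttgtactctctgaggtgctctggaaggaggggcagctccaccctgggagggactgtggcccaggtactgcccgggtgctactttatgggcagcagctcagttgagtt
IL11: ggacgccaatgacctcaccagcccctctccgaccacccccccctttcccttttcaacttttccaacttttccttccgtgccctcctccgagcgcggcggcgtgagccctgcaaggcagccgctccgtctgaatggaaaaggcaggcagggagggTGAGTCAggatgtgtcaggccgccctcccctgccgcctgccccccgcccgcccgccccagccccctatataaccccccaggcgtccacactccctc
TNF: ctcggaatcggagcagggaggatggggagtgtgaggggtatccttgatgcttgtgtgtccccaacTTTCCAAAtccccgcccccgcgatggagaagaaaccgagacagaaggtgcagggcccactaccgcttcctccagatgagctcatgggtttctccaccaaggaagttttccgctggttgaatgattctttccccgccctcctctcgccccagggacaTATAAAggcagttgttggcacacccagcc

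An AP-1 match began at -12 from the start of IL1A, at -223 in the IL1RN window and at -96 in IL11, and the IL1B and TNF windows held none. The other IL1A window, whose start lies further downstream, held 2 AP-1 matches, and the other 2 IL1RN windows held none. AP-1 letters stood in 6.57% of all 35116 windows of this length. C/EBP matches stood at 3 places in IL1B, at 2 in IL1A and at 1 each in TNF and IL6, and the other 2 IL1RN windows held 1 and 3 (a pair of them overlapping), against 33.2% of all windows with 1 or more. A STAT match stood in IL1B and in the CSF2 window (6.57% of all windows). Among these genes an NF-κB match was found only in the IL6 window, which is not shown, where it is GGGATTTTCC at -73 (5.21% of all windows). TNF held a TATA box at -29, IL1A one at -239 and the third IL1RN window overlapping matches at -30 and, on the other strand, at -32, and 3763 of the 35116 windows held it. No motif was shared by all 4 genes that were lower. These matches describe letters, and binding was not measured.

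The second comparison set 16HBE-ex14+HGF against 16HBE-WT+HGF, and shares no array with the first. It is not an independent repeat, because the clone is the same and both tests took the spread from all 16 arrays. IL1A, IL1B, IL1RN and IL11 were again lower and LIF was again higher, so 5 of 9 were called, 4 lower and 1 higher. TNF was not called. Of all gene names, 10.6% were called, 5.29% lower and 5.36% higher, and the median absolute log2 difference was 0.93 over the cytokine genes and 0.25 over all genes. The same 5 genes, and no other tested cytokine, were called when any single array was left out.

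IL1A had log2 levels of 1.77, 2.57, 2.58 and 2.77 in 16HBE-WT+HGF and 0.74, -0.14, 1.05 and 0.89 in 16HBE-ex14+HGF. The groups lay apart, with a difference of -1.79 ± 0.27 (SE, adjusted p = 0.000303). IL1B had log2 levels of 0.71, 0.61, 0.35 and 1.07 in 16HBE-WT+HGF and -0.69, -1.91, -1.22 and -1.36 in 16HBE-ex14+HGF. Its groups also lay apart, with a difference of -1.98 ± 0.27 (SE, adjusted p = 0.000127). IL1RN ranged from -1.17 to -0.97 and from -5.43 to -4.07 at A_33_P3246833, where again 1 of 4 16HBE-ex14+HGF arrays was well above background. The difference was -3.84 ± 0.23 (SE, adjusted p = 9.83e-08), while A_33_P3246829 gave 0.23 (adjusted p = 0.561), so the probes disagreed in this comparison too.

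IL11 had log2 levels of -0.03, 0.25, 0.50 and 0.62 in 16HBE-WT+HGF and -0.89, -1.44, -0.70 and -0.49 in 16HBE-ex14+HGF, a difference of -1.22 ± 0.24 (SE, adjusted p = 0.00205). LIF had log2 levels of 1.28, 1.72, 1.31 and 1.71 in 16HBE-WT+HGF and 2.25, 2.05, 2.92 and 2.53 in 16HBE-ex14+HGF. Neither gene's groups overlapped. The LIF difference was 0.93 ± 0.20 (SE, adjusted p = 0.00369), with 0.65 on slide 1 and 1.22 on slide 2, and the second LIF probe gave 0.54 (adjusted p = 0.0751) with all 16HBE-ex14+HGF arrays higher. IL18 was lower on every 16HBE-ex14+HGF array by a mean of -0.35 (adjusted p = 0.0219), under the fold limit. The differences were 0.42 for TNF (95% confidence interval -0.12 to 0.96, adjusted p = 0.281), -0.04 for IL6 (-0.80 to 0.73, 0.962) and 0.66 for CSF2 (-0.12 to 1.44, 0.242), and the arrays of each overlapped.

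**Figure D1:**
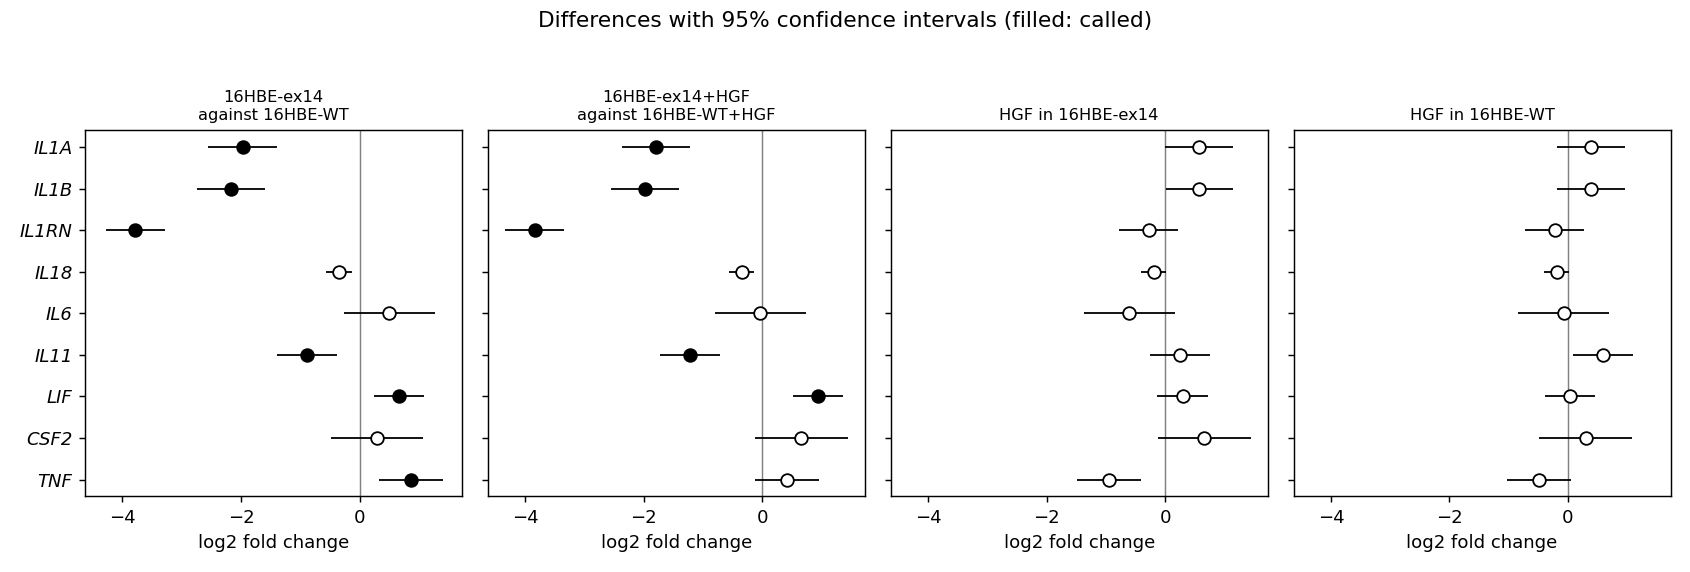
Log2 fold change of the 9 tested cytokine genes (circles, filled where called) with the 95% confidence interval (lines), for the genotype difference without and with HGF and the HGF response of each genotype. The differences of IL1A, IL1B, IL1RN and IL11 lay below 0 in both genotype comparisons, and no HGF response was called.

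The HGF responses were then compared within each genotype, 16HBE-ex14+HGF against 16HBE-ex14 and 16HBE-WT+HGF against 16HBE-WT. These comparisons use the same arrays as the genotype comparisons above. In 16HBE-ex14 cells, 0 of 9 cytokine genes were called, against 2.1% of all gene names, and 2 (IL1B and TNF) had an unadjusted p under 0.05. In 16HBE-WT cells, 0 of 9 were called, against 0% of all gene names, since no probe passed there, and 1 (IL11) had an unadjusted p under 0.05. The median absolute log2 change of the cytokine genes was 0.57 in 16HBE-ex14 and 0.30 in 16HBE-WT, against 0.16 and 0.11 over all genes.

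TNF came nearest to a call. Its log2 level was 1.33, 1.65, 1.12 and 1.73 in 16HBE-ex14 and 0.82, 0.43, 0.53 and 0.26 in 16HBE-ex14+HGF, and every array with HGF was below every array without it. The difference was -0.95 ± 0.25 (SE), or 1.93-fold lower, with an adjusted p of 0.0613, and it was -0.87 on slide 1 and -1.03 on slide 2. It passed the threshold with normexp background correction (-0.80, adjusted p = 0.0157), scaling to the array median (-1.11, 0.035), only probes above background on all 16 arrays (0.0327), a trended robust prior (0.0342) or array weights (0.0269). It also passed without 16HBE-WT replicate 3 (0.0394), 16HBE-WT+HGF replicate 4 (0.0267) or 16HBE-ex14 replicate 3 (0.0451). In 16HBE-WT cells the TNF levels with HGF were -0.34, 0.11, -0.22 and 0.80, and the difference of -0.49 (95% confidence interval -1.03 to 0.05, adjusted p = 1) lay within overlapping arrays.

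IL1A and IL1B had like values in both genotypes. With HGF, IL1A differed by 0.57 (adjusted p = 0.353) in 16HBE-ex14 and by 0.39 (1) in 16HBE-WT, and IL1B by 0.58 (0.342) and 0.39 (1). The arrays overlapped in each case, and 16HBE-ex14+HGF replicate 2 had the lowest IL1A and IL1B level of its group. The IL1A response of 16HBE-ex14 was 0.08 on slide 1 and 1.06 on slide 2. The IL1RN differences were -0.28 and -0.22. IL18 differed by -0.20 in 16HBE-ex14, with every HGF array lower, and by -0.19 in 16HBE-WT. None of these passed the test.

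In the IL-6 family, IL6 differed by -0.61 (adjusted p = 0.492) with HGF in 16HBE-ex14 and by -0.07 in 16HBE-WT. The IL11 difference was 0.25 in 16HBE-ex14 and 0.59 in 16HBE-WT, the latter with an unadjusted p of 0.0261 and an adjusted p of 0.971. LIF differed by 0.29 and 0.03. CSF2, the growth factor of granulocytes and macrophages, differed by 0.66 (adjusted p = 0.454) in 16HBE-ex14 and by 0.30 in 16HBE-WT. The spread of CSF2 among the 4 16HBE-WT arrays was 0.80 (SD), wider than either difference.

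Whether the HGF response differed between genotypes was tested as an interaction, and 0 of 9 cytokine genes were called, against 0% of all gene names. No tested cytokine gene had an unadjusted p under 0.05 there. The interaction was -0.54 for IL6 (95% confidence interval -1.62 to 0.55), -0.45 for TNF (-1.21 to 0.31), 0.36 for CSF2 (-0.74 to 1.47), -0.34 for IL11 (-1.05 to 0.38) and 0.26 for LIF (-0.34 to 0.86). It was 0.19 for both IL1A and IL1B, with intervals of -0.63 to 1.00 and -0.62 to 0.99, -0.06 for IL1RN (-0.76 to 0.64) and 0.00 for IL18 (-0.31 to 0.30). With 4 arrays per condition, these intervals allow differences of response of over 1.5-fold for each gene but IL18.

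IL1A, IL1B and IL1RN lie together on chromosome 2, so their neighbours were examined. Within 1 Mb of the IL1B probe, 32 other gene names were tested. Without HGF, 0 of them were called between the genotypes, against 9.26% of all gene names, and their median log2 difference was -0.07. With HGF, 2 were higher, MERTK (1.46, adjusted p = 0.0049) and IL37 (0.98, 0.0139), and 2 were lower, CKAP2L (-0.66, 0.00549) and NT5DC4 (-1.13, 0.0487). Over all gene names, 10.6% were called there. Within 5 Mb, the 77 other tested gene names around IL1A, with IL1B and IL1RN among them, had a median of -0.23 without HGF. Over all gene names it was -0.02. Of the 77, 67.5% were lower, and 2 were called lower and 1 higher. With HGF their median was -0.13, against 0.01 over all gene names, and 7 were called lower and 3 higher. The part of this region in the IL1A, IL1B and IL1RN differences was not tested. Without HGF, 294 gene names around IL11 on chromosome 19 had a median of 0.07. The 130 around LIF on chromosome 22 had a median of -0.02, and the 320 around TNF on chromosome 6 one of -0.08.

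**Figure D2:**
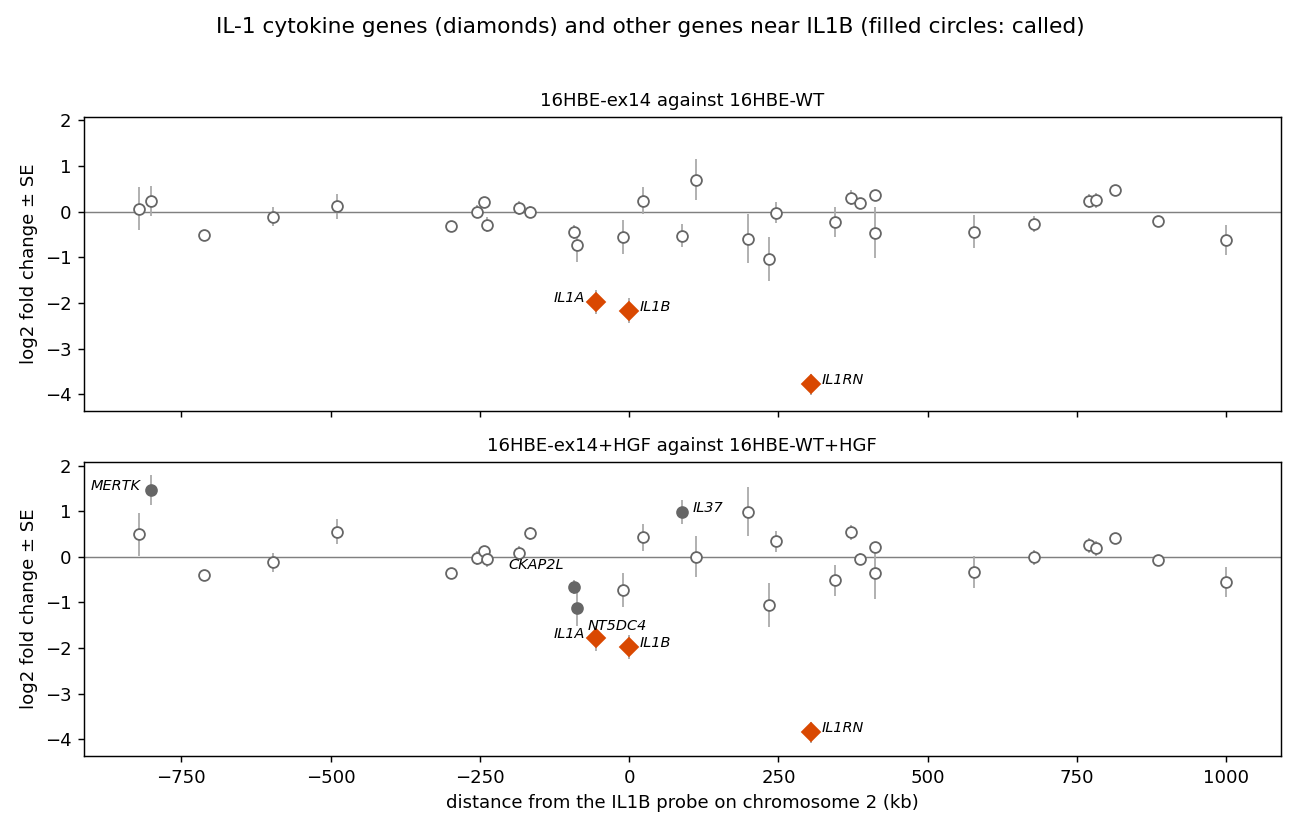
Log2 fold change ± SE of 16HBE-ex14 against 16HBE-WT without HGF (top) and with HGF (bottom), by distance in kb from the IL1B probe on chromosome 2. Diamonds are IL1A, IL1B and IL1RN, and circles the other 32 gene names, filled where called. The diamonds lie at -1.97, -2.17 and -3.79 in the top panel, where no other gene name was called.

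The genes around these cytokines were taken from a list of 66 receptors, processing enzymes, signalling proteins, related cytokines and target genes, of which 60 were tested. Between 16HBE-ex14 and 16HBE-WT, 15 of 60 were called, 13 lower and 2 higher. With HGF, 16 of 60 were called, 12 lower and 4 higher. The HGF response of 16HBE-ex14 included 10 of 60, 4 higher and 6 lower, and that of 16HBE-WT and the interaction included 0 of 60 each. Over all gene names, 9.26% were called between the genotypes without HGF (4.77% lower) and 10.6% with HGF (5.29% lower). The share was 2.1% for HGF in 16HBE-ex14 and 0% for HGF in 16HBE-WT and for the interaction.

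Among receptors, IL1R2, the decoy receptor that takes up IL-1 without signalling, was lower in 16HBE-ex14 cells. Its log2 level was 2.56 ± 0.27 (SD, n = 4) in 16HBE-WT and 1.48 ± 0.14 in 16HBE-ex14, a difference of -1.08 (adjusted p = 5.97e-05), and the difference with HGF was -0.90 (0.000215). The signalling receptor IL1R1 differed by -0.55 without HGF (adjusted p = 0.00547, under the fold limit), but its second probe, A_24_P200023, by -0.22 (0.667). The partner of IL1R1, IL1RAP, differed by 0.13 (0.629). A second IL1RAP probe, A_23_P170857, was called higher with HGF in 16HBE-ex14 (0.64, adjusted p = 0.0357), and the representative probe was not (0.30, 0.389). IL1RL1, the receptor of IL-33, had a level of -2.70 ± 0.71 in 16HBE-WT and -4.78 ± 0.53 in 16HBE-ex14, where 1 of 4 arrays was well above background. The genotype difference without HGF was -2.08 (adjusted p = 0.0018), and IL1RL1 rose by 2.09 with HGF in 16HBE-ex14 (0.0101). With HGF the genotypes differed by -0.79 in IL1RL1, which was not called. With normexp background the IL1RL1 values were -0.66 by genotype, still called, and 0.53 for HGF in 16HBE-ex14 (adjusted p = 0.0691), no longer called.

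The receptor chain of IL11 was lower together with its ligand. IL11RA had log2 levels of 0.43 ± 0.23 (SD, n = 4) in 16HBE-WT and -0.44 ± 0.09 in 16HBE-ex14, and the differences were -0.87 without HGF (adjusted p = 0.000391) and -1.13 with HGF (3.83e-05). IL6ST, which encodes gp130, differed by -0.45 (0.00362) and -0.54 (0.000859) at its representative probe, both under the fold limit, with every 16HBE-ex14 array lower. Its other probes varied. A_23_P502470 gave -0.39 without HGF and -0.44 with it, and A_32_P223777 gave -0.01 (adjusted p = 0.973) and -0.14 (0.422). LIFR was above background on no array, so the specific receptor chain of LIF was not measured. TNFRSF1A, the main TNF receptor of epithelium, was higher by 0.57 (0.000208, just under the fold limit) and by 0.59 with HGF (0.000133, called). Around TNFRSF1A on chromosome 12, 177 gene names within 5 Mb had a median log2 difference of 0.30 without HGF. Of these, 32 were called higher, against 4.48% of all gene names, and the part of that region in the TNFRSF1A difference was not tested. TNFRSF1A lost its call without 2 of the 16 arrays, at log2 differences down to 0.53, while IL1R2 and IL11RA kept theirs without any single array.

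In the processing and release list, CASP1, the protease that matures IL-1β and IL-18, was lower by genotype and with HGF. Its mean log2 level was -1.37 in 16HBE-WT against -1.84 once HGF was added, and -2.28 in 16HBE-ex14 against -3.28 once HGF was added. The genotype differences were -0.91 (adjusted p = 0.00569) and -1.44 (0.000188), and the HGF difference in 16HBE-ex14 was -0.99 (0.016), which lost its call without any 1 of 5 arrays. With normexp background these were -0.56, -0.66 and -0.34, and only the genotype difference with HGF was called. AIM2, a DNA sensor that recruits caspase-1, was lower by genotype without HGF (-1.67, adjusted p = 6.69e-05) and with it (-1.35, 0.000313). NLRP3, another sensor of that kind, rose by 1.48 with HGF in 16HBE-ex14 (adjusted p = 0.0155), as did its second probe (1.29, 0.0447). It lost its call without 2 of the 16 arrays. The other 5 of the 8 tested genes of this list, PYCARD and GSDMD among them, were called in no comparison. Of 13 proximal signalling genes, such as MYD88, JAK1 and STAT3, 0 were called in any comparison, against at most 10.6% of all gene names.

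Among the related cytokines, IL37 had the largest log2 change of the genes of the list called for HGF in 16HBE-ex14. This anti-inflammatory member of the IL-1 family had log2 levels of -3.55, -3.52, -2.63 and -3.38 in 16HBE-ex14 and -1.11, -1.31, -0.82 and -1.02 in 16HBE-ex14+HGF. Every array with HGF was above every array without, and IL37 rose by 2.20 ± 0.26 (SE, adjusted p = 0.000929). With normexp background the rise was 0.93, and it was called there too. In 16HBE-WT the difference was 0.70 and was not called. CSF3, which encodes G-CSF, rose by 2.13 with HGF in 16HBE-ex14 (adjusted p = 0.0069) and was lower in 16HBE-ex14 than in 16HBE-WT (log2 difference -2.46, 0.000405), with 2 of 4 16HBE-ex14 arrays above background. With HGF the genotype difference was -1.29 at this probe (0.0238, lost without any 1 of 5 arrays) and -0.43 at a second probe (0.499). With normexp background the CSF3 rise with HGF was 0.69 and the genotype differences were -0.94 and -0.77, each called. IL32 was lower by genotype at -0.90 without HGF and -1.20 with it, at adjusted p of 0.000467 and 3.76e-05, and fell by 0.59 with HGF in 16HBE-ex14 (0.0337, lost without any 1 of 6 arrays and in 6 of 14 other alternatives). The second IL32 probe, A_33_P3346826, gave -0.54 for that response (adjusted p = 0.072), which was not called.

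LTB, a ligand of the TNF family, fell with HGF in 16HBE-ex14 (-1.20, adjusted p = 0.0392, lost without any 1 of 8 arrays), and its genotype difference with HGF was -0.94 (0.0329, lost without any 1 of 5). TNFSF10, which encodes TRAIL, differed by -1.57 (0.0169) and -2.17 (0.00189) between genotypes, with 1 of 4 16HBE-ex14+HGF arrays above background. With normexp background these were -0.64, called, and -0.57, under the fold limit. CTF1, a cytokine of the IL-6 family, was higher by 0.62 (0.00487) and 0.61 (0.00474), near the fold limit. TSLP, IL36A, IL36G and LTA did not pass the filter on low signal.

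Of the 12 target genes of IL-1, TNF or IL-6 signalling, 5 were lower and 1 was higher in 16HBE-ex14 without HGF. Over all gene names the shares were 4.77% lower and 4.48% higher. SAA1, an acute-phase protein, had log2 levels of 2.93, 2.48, 3.18 and 2.60 in 16HBE-WT and 0.74, 1.34, 0.42 and 1.34 in 16HBE-ex14. With HGF, its levels were 1.65, 2.17, 1.62 and 2.38 in 16HBE-WT+HGF and -0.44, -0.75, -0.84 and -1.15 in 16HBE-ex14+HGF. The genotypes did not overlap, and the differences were -1.84 (adjusted p = 0.000143) and -2.75 (4.11e-06), while HGF in 16HBE-ex14 gave -1.75 (0.00186). SAA2 followed SAA1, at -1.36, -2.40 and -1.55, and the near-identical sequences of the pair may share signal. With normexp background the SAA2 difference with HGF was -1.51 and the HGF response of 16HBE-ex14 was -0.90, both called. The adhesion molecule ICAM1 was lower by genotype (-0.81, adjusted p = 0.000123, and -0.83 with HGF, 8.41e-05).

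PTGS2, the inducible cyclooxygenase, was called lower without HGF (-2.06, adjusted p = 0.0296), with 1 of 4 16HBE-ex14 arrays above background and the call lost without any 1 of 6 arrays. It was -0.46 with normexp background and not called. PTGS2 passed the filter on 11 arrays, which were all 4 of 16HBE-WT, all 4 of 16HBE-WT+HGF, 1 of 16HBE-ex14 and 2 of 16HBE-ex14+HGF. Its place among the tested genes, and in the counts of genes called lower, thus rests on the genotype in which it was higher. TNFAIP3, an inhibitor of NF-κB signalling, was lower at -0.68 both without and with HGF (0.0148 and 0.0131), and lost its call without 1 array in each comparison. It lies on chromosome 6 among 58 gene names with a median log2 difference of -0.30 without HGF within 5 Mb. Of these, 11 were called lower, against 4.77% of all gene names, and the part of that region was not tested. LCN2, an antimicrobial protein, was higher by 1.45 (0.000101) and 1.84 (1.15e-05), and by 0.70 and 1.05 with normexp background, both called. NFKBIA, the inhibitor IκBα, differed by -0.06 between genotypes without HGF and fell by 0.65 with HGF in 16HBE-ex14 (0.00601), a call lost without 1 of the 16 arrays. The neutrophil attractant CXCL8 differed by -0.84 between genotypes without HGF (0.0737) and was not called at its representative probe. A second CXCL8 probe, A_33_P3243230, was called lower in 16HBE-ex14 without HGF (-1.004, adjusted p = 0.027), and gave -0.83 with HGF (0.0596). CXCL1, CXCL2, SOCS3 and CCL20 were called in no comparison. Between genotypes without HGF, CXCL1 differed by 0.07, CXCL2 by 0.54 and CCL20 by -0.03. With HGF these differences were 0.49, 0.31 and -0.37. The mean log2 level of SOCS3 was 1.45 in 16HBE-WT and 1.32 in 16HBE-ex14.

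**Figure D3:**
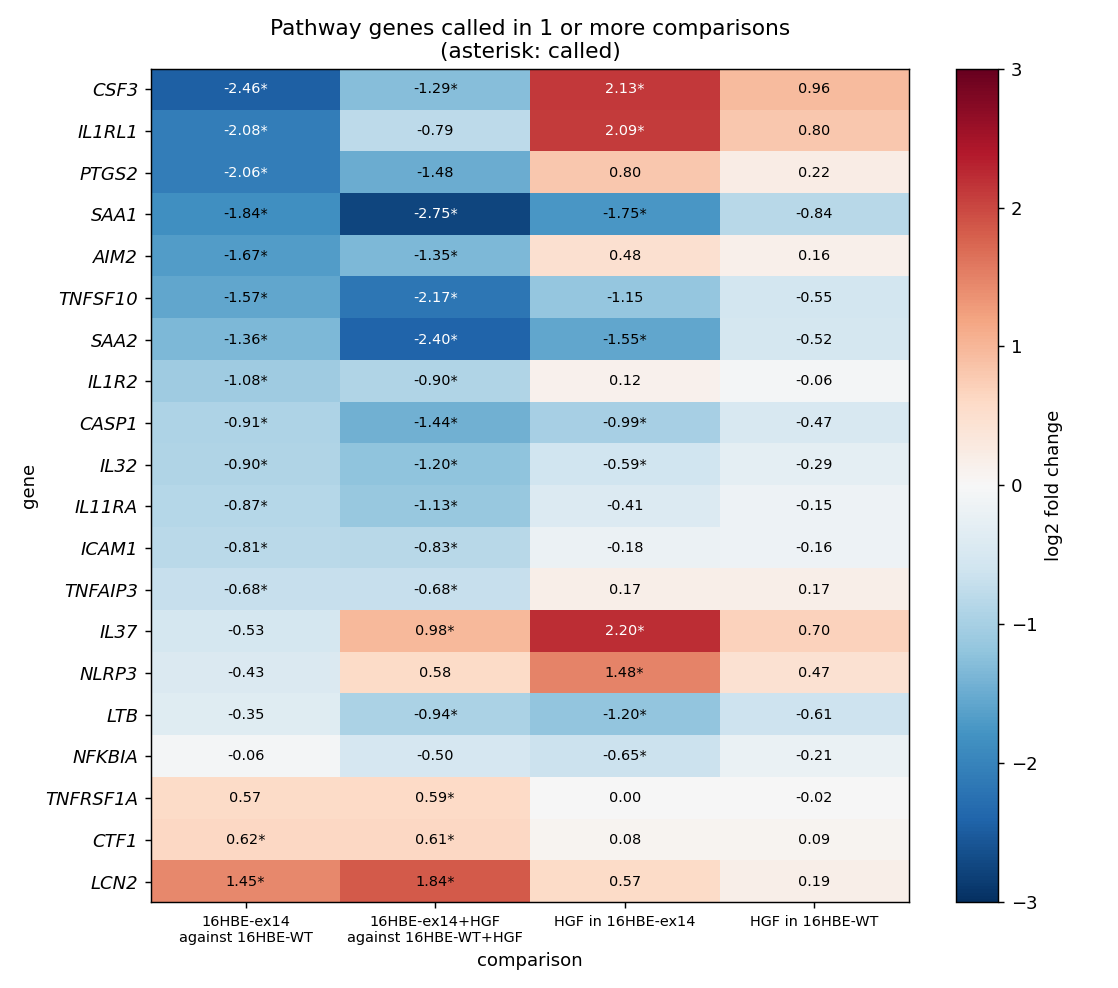
Log2 fold changes of the 20 genes of the list of 66 that were called in 1 or more comparisons, with a row for each gene and a column for each of the 4 comparisons. Colour and figures give the log2 fold change, and asterisks mark calls. SAA1 is negative in all 4 columns, and IL37, CSF3 and IL1RL1 hold the 3 highest values in the column of HGF in 16HBE-ex14.

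The genes whose levels followed each called cytokine most closely over the 16 arrays were listed by Pearson r, as a description. Nearest to IL1A were RGP1, VPS54 and KDM4B (r of 0.98, 0.97 and 0.96), and nearest to IL1B were LPIN1, PLAT and PGPEP1 (r of 0.97 for each). IL1RN lay nearest to APCDD1 (0.99), CPNE1 (0.99) and ALCAM (0.98) at its representative probe. IL11 lay nearest to LINC02381 (0.95), IL1A (0.94) and MYOSLID (0.93), LIF to ALG9 (0.97), MANSC1 (0.96) and RAB3GAP2 (0.96), and TNF to RILPL1 (0.96), TLE2 (0.95) and CFDP1 (0.95). The 16 arrays share 2 genotypes, and r was also taken within the 8 arrays of each, first 16HBE-WT and then 16HBE-ex14. It was 0.95 and 0.94 for TNF with RILPL1, 0.90 and 0.93 for LIF with ALG9, 0.84 and 0.94 for IL1A with VPS54, and 0.84 and 0.91 for IL11 with IL1A. It was 0.57 and 0.90 for IL1B with PLAT, and -0.46 and 0.88 for IL1RN with CPNE1. For the nearest gene it was 0.80 and 0.93 for IL1A with RGP1, 0.96 and 0.54 for IL11 with LINC02381, and 0.54 and 0.47 for IL1RN with APCDD1. The pairs were chosen for their r over these same arrays, so a high r within a genotype is no separate check.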

How the data were processed

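RNA of 16 cultures was hybridised to Agilent single-colour arrays. The authors deposited the intensity of each of 62976 spots as the processed signal of Feature Extraction 10.7.3.1, which per the file headers is linear, background-subtracted and detrended, and arrays were not scaled to each other. The series-wide value file repeats these signals (1007616 of 1007616 values equal). The normalization between arrays is not given in the sources used here.

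Outlier spots (0.112%) were dropped, signals were put on the log2 scale relative to the 75th percentile of their array, and spots of a probe were averaged. Of 58201 non-control probes, 34600 were well above background on at least 4 arrays and were tested, and 17868 were below background on all arrays. The number of arrays limits the precision. limma 3.58.1 in R 4.3.3 (data.table version 1.17.8, jsonlite 2.0.0) was fitted with a mean for each condition and empirical Bayes moderation, and 5 contrasts were adjusted by Benjamini-Hochberg, with calls at an adjusted p under 0.05 and a fold change over 1.5, the limits the study used. The fit was tested on simulated data. Figures were drawn with Python 3.11.15, matplotlib 3.10.9 and pandas 2.3.3. Positions of probes are those of the array annotation (hg19), and promoter sequences are from RefSeq (GRCh38.p14).

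Groups came from the sample labels. For 16HBE-WT+HGF the sample titles name the cells otherwise than the genotype field, which was used. Replicate numbers follow slide and array row, and are not known to pair cultures. The p-values set each difference of means against the spread between these arrays, and the edited cells are a single clone. Slide was not part of the main fit, so differences between slides remain in that spread. The genes named were all 10 cytokines, the listed pathway genes called in any contrast, the receptors of called cytokines and the 3 genes most alike each called cytokine. Other pathway genes are named for their lists. The members and lists were chosen with earlier results of these data known. The alternatives were other background corrections, scalings, filters, blocks, priors, weights, sample sets and fold limits, and each array left out in turn.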

Additional observations from a re-analysis of the deposited data

Results flagged for a closer look

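Dixon's test marked 3 of 52 sets of 4 arrays (13 cytokine probes in 4 conditions), and chance alone marks about 1 set in 20. IL1B in 16HBE-ex14 had 1 array, replicate 2, at a log2 level of -1.38 above the other 3, which lay between -2.10 and -1.99, and this array was still below every 16HBE-WT array. IL6 in 16HBE-ex14+HGF had replicate 1 at 5.16, above the other 3 at 4.09 to 4.24. LIF, at its second probe A_24_P233488, had 16HBE-ex14 replicate 4 at -2.10, above the other 3 at -2.62 to -2.57.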

How the results depend on the processing

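The calls of IL1A and IL1B between the genotypes, and those of IL11 and LIF with HGF, kept their direction and their side of the threshold in all 14 alternatives and without each of the 16 arrays. The cytokine count in HGF in 16HBE-ex14 moved from 0 to 1, which was TNF, with normexp background, scaling to the array median, only probes above background on all 16 arrays, a trended robust prior and array weights. IL1RN rests on the probe chosen. With only probes above background on all 16 arrays its other probe stood in, and the log2 difference was -0.07 without HGF and, reversed, 0.23 with HGF. LIF without HGF lost its call with no filter (adjusted p = 0.0573) and as the mean of its probes (0.58, under the fold limit), and TNF with no filter (0.05). IL18 passed where no fold limit was set. With scaling to the array median or to the E1A spike-ins, its adjusted p was 0.326 and 0.265 without HGF and 0.211 and 0.101 with HGF. The count of pathway genes moved to 23 without a fold limit for 16HBE-ex14 against 16HBE-WT (main count 15), and to 4 with only the arrays compared for HGF in 16HBE-ex14 (main count 10), where fewer arrays gave the spread. Leaving out each array in turn gave 3 to 6 cytokine genes for 16HBE-ex14 against 16HBE-WT, 5 to 5 with HGF, 0 to 1 for HGF in 16HBE-ex14 and 0 to 0 for HGF in 16HBE-WT and for the interaction. For pathway genes it gave 13 to 17, 14 to 16, 6 to 11, 0 to 0 and 0 to 0 in the same order, and the 6 came without replicate 2 or 4 of 16HBE-ex14 or without replicate 3 of 16HBE-ex14+HGF. The cause of these moves was not tested otherwise.

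With the array row as a replicate block, the cytokine counts were 6, 5, 0, 0 and 0 and the pathway counts 15, 16, 10, 0 and 0, as without it, and no call of a cytokine changed. Rows are not known to pair cultures. The deviations of same-row arrays correlated at 0.03 to 0.32 (median 0.20, 20 of 24 pairs over 0.1). Those of arrays in different rows correlated at -0.36 to 0.41 (median -0.13, 19 of 72 pairs over 0.1). Of 16 arrays, 4 correlated best with an array of their own row. By chance such best matches would fall in proportion to the 24 same-row and 72 other pairs. The other pairs mix arrays of the same slide and of different slides. Deviations were taken from the mean of each condition, which ties same-row and other-row values to each other. These figures therefore cannot decide whether rows pair cultures. Slide as a block changed no cytokine call. Of the 41 calls of pathway genes, normexp background moved 17 log2 values by over 1.5 times and ended 10 calls. The mean over the probes of a gene moved 1, CSF3 between the genotypes with HGF (-0.86, not called). The normexp setting started from the mean spot signal and added 50 intensity units to each value. The 75th percentiles of the processed signal were 138.4 to 259.8, and such an offset makes log2 differences of dim probes smaller. The part of the offset in these moves was not tested.

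Scaling to the array median or to the E1A spike-ins moved the median log2 difference of all genes between the genotypes by 0.14 and 0.17 without HGF and by 0.09 and 0.10 with HGF, and that of HGF in 16HBE-ex14 by -0.16 and -0.125. For HGF in 16HBE-WT the moves were -0.12 and -0.05. No called cytokine changed sign under a scaling. Of values not called, IL6 between the genotypes with HGF and LIF with HGF in 16HBE-WT, both near 0, changed sign, as did the IL1RN interaction with normexp background (0.12). Signals near the limit of about -4.39 (log2, lowest value well above background, median over arrays) bound what could be measured for IL33 and for IL1RN in 16HBE-ex14.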
